A study of Mus musculus with 24 samples.

Results

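LKB1, the kinase encoded by Stk11, and the kinases that work beside AMPK were followed here as 10 genes, which were Stk11, Strada, Cab39, Camkk2, Sik1, Sik2, Sik3, Nuak1, Nuak2 and Snrk. They were taken by name from a table of 55487 genes, and all 10 were among the 15828 genes with enough reads to be tested. RNA was sequenced from mouse embryonic fibroblasts (MEFs) that were wild type (WT) or lacked both catalytic subunits of AMPK (AMPK KO), each under DMSO, the AMPK activator MK-8722 or the MTOR inhibitor torin1. Each of the 6 groups held 4 libraries. The WT libraries came from passages 12 to 15 and the AMPK KO libraries from passages 16 to 19, with each passage once in every group, so genotype, cell line and passage range cannot be told apart. The study's methods name 1 source for both kinds of MEFs and do not state separate animals, so that the p-values below measure the spread between passages of these cultures.

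AMPK is switched on when an upstream kinase phosphorylates its activation loop. LKB1 does so in a complex with the pseudokinase STRADα (Strada) and the scaffold MO25α (Cab39), and CaMKK2 (Camkk2) does so in response to calcium. LKB1 phosphorylates the same loop in a family of AMPK-related kinases, among them the salt-inducible kinases (Sik1, Sik2, Sik3), which hold CRTC coactivators and class IIa histone deacetylases in the cytoplasm, the NUAK kinases (Nuak1, Nuak2), which act on the myosin phosphatase, and SNRK. These kinases are regulated largely by phosphorylation, which RNA levels do not report.

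The promoters of the 3 members that torin1 moved in both genotypes are printed below because they were the members called in both. Each run is the 250 bases before the start site in RefSeq (GRCm38.p6), written 5′ to 3′ on the strand of the gene. RefSeq promoters matched 8 of the 10 members, and Sik1 and Nuak2 were not matched. Both strands were searched for TGACG, the core of the cAMP response element, and for CACGTG, an E-box that TFEB and related factors can bind, and matches are in capitals.
Sik2, minus strand, chr9:51009074-51009323: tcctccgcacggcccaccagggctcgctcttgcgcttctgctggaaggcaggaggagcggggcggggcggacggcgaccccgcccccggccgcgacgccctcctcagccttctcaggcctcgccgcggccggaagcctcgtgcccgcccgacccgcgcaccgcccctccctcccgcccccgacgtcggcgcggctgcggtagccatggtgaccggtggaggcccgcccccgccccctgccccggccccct
Sik3, plus strand, chr9:46012570-46012819: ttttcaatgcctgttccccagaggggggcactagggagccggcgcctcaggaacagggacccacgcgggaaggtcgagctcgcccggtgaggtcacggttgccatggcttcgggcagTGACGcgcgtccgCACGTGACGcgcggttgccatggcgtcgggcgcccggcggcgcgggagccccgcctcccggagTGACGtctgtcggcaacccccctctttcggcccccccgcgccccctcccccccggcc
Cab39, plus strand, chr1:85793191-85793440: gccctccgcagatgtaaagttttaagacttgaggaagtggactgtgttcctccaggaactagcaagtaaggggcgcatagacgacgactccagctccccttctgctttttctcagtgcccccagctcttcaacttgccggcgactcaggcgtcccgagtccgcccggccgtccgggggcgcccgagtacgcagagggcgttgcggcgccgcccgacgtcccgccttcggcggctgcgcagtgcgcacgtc
The Sik3 window held 3 matches to TGACG and 1 to CACGTG, which shares bases with one of them. The windows of Sik2 and Cab39 held neither. Of 32851 promoters of this length, 17.8% held TGACG at least once, 0.7% at least 3 times, and 6.0% held CACGTG. Among the 8 matched members, TGACG was found in 3 and CACGTG in 1. These are matches of letters only.

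Library totals lay between 26900240 and 34192685 estimated counts. The transcripts of the deleted subunits stayed countable in AMPK KO, with Prkaa1 at 65.6 to 82.5 CPM (counts scaled to library size and composition) against 71.3 to 84.5 in WT, so these gene totals do not check the genotype labels. Of 10 fibroblast markers, Col1a1, Col1a2 and Vim were abundant in WT, whereas Lum had at most 1 count in any library and Dcn stayed below 1 CPM on average in each group. The 10 markers summed to 7310 to 12100 CPM in WT libraries and to 2520 to 3440 CPM in AMPK KO libraries. The markers did not all move alike. Under DMSO, 8 of them were tested, and by the thresholds given below 7 were lower in AMPK KO and 1 was higher. Of all tested genes, 26% were called lower and 30.9% higher in that comparison. From WT to AMPK KO under DMSO, Col1a2 fell from 2500 ± 601 CPM (SD, n = 4) to 28.4 ± 12.6 CPM. S100a4 moved much less, from 196 ± 17.1 to 162 ± 17.8 CPM. Pdgfra, scarce in both genotypes, rose from 0.627 ± 0.331 to 1.16 ± 0.36 CPM. Markers of blood cells summed to at most 0.0614 CPM, those of epithelium to 1.06 to 6.45, of endothelium to 0.877 to 8.6, of skeletal muscle to 0.129 to 3.97 and of neurons to 0.818 to 9.05. The part of these marker differences in the genotype results was not tested, and in bulk RNA fewer cells of a type and less RNA per cell cannot be told apart.

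Stk11 was the most abundant member per length. Under DMSO in WT it stood at 133 ± 2.55 TPM (an abundance scaled for transcript length and depth, SD, n = 4), followed by Cab39 at 68.2 ± 6.31, Sik3 at 43.1 ± 3.01 and Camkk2 at 36.7 ± 3.35, and the ranges of these genes did not overlap. Sik2 at 21 ± 1.59, Strada at 21 ± 1.55, Snrk at 18.7 ± 2.57 and Nuak1 at 16.1 ± 4.08 had ranges that overlapped their neighbours'. Nuak2 at 12.8 ± 1.12 TPM lay within the range of Nuak1, and Sik1 was lowest at 8.58 ± 0.779 TPM. In AMPK KO under DMSO, Sik1 at 14.2 ± 0.945 TPM exceeded Sik2 at 9.96 ± 0.787 TPM, the reverse of their order in WT. Over the 6 groups, mean log2 CPM ranged most widely for Sik2, by 1.68, then Nuak1, by 1.08, and Sik1, by 0.97, and least for Strada, by 0.42.

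**Figure D1:**
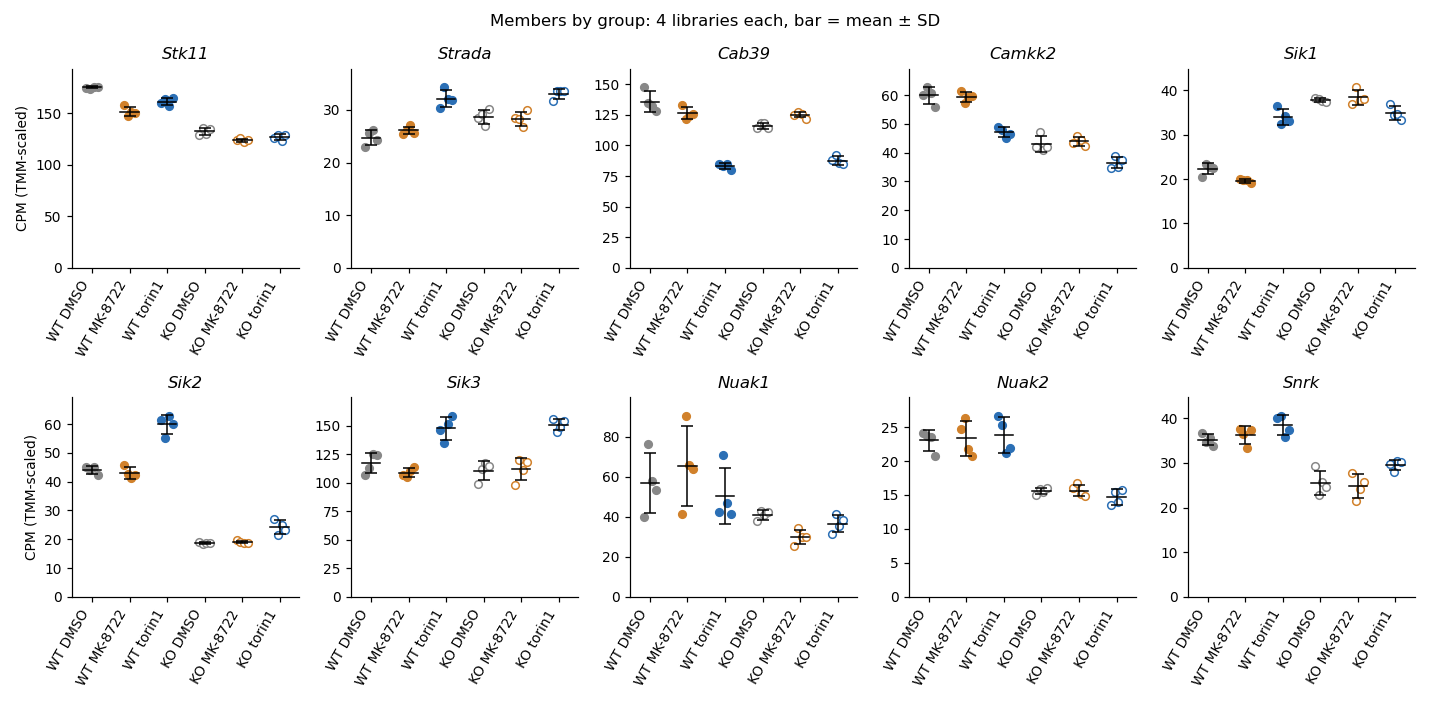
CPM of the 10 members in each of the 24 libraries, by group, with filled points for WT, open points for AMPK KO, and bars for the mean ± SD of 4 libraries. Sik2 sits between 41.3 and 63 in WT and between 18.4 and 27.1 in AMPK KO, and Cab39 drops with torin1 in both genotypes.

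Torin1 moved 6 of the 10 members in WT, raising Strada, Sik1, Sik2 and Sik3 and lowering Cab39 and Camkk2. Calls needed an adjusted p under 0.05 (edgeR quasi-likelihood test, Benjamini-Hochberg over all genes tested) and a fold change of at least 1.2. With 4 members higher and 2 lower, the counts stand beside 26.6% of all tested genes called higher and 21.1% called lower. The members' median log2 fold change was 0.09, against 0.04 over all genes. In AMPK KO, Sik2 and Sik3 rose and Cab39 fell, against 25.9% of tested genes called higher and 17.6% called lower, and the median was -0.08 against 0.06. With 10 genes, neither count stands far from the share of all genes called.

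Cab39, the scaffold that locks LKB1 in its active shape, had the largest fall. In WT it read 148, 135, 132 and 128 CPM under DMSO at passages 12 to 15, and 84.9, 83.2, 85 and 80.3 CPM under torin1. Every torin1 library was below every DMSO library, with a log2 fold change of -0.70 ± 0.041 (SE, adjusted p = 8.9e-13 by edgeR). In AMPK KO the values were 114, 118, 118 and 114 CPM under DMSO at passages 16 to 19, and 88, 92.3, 85.4 and 84.9 CPM under torin1. There too the groups did not overlap, and the change was smaller, at -0.41 ± 0.041 (adjusted p = 9.9e-09, edgeR). The test of the difference gave 0.30 ± 0.057 on the log2 scale (adjusted p = 0.0021, edgeR). That call was lost at fold changes under 1.2, with 0.23 and 0.24 without AMPK KO torin1 replicates 1 and 3, 0.25 without WT DMSO replicate 4, and 0.26 with library size as the only scaling. With an offset for transcript length it was lost by its p, at 0.29 (adjusted p = 0.061, edgeR).

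Sik2 and Sik3, 2 of the 3 salt-inducible kinases, rose with torin1 in both genotypes. Sik2 in WT read 45, 44, 45.1 and 42.3 CPM under DMSO and 61.4, 55.3, 63 and 60.1 CPM under torin1, a log2 fold change of 0.44 ± 0.053 (adjusted p = 1.1e-07, edgeR). In AMPK KO it went from 18.9, 18.4, 18.6 and 18.8 CPM to 27.1, 21.6, 24.8 and 23.3 CPM, a change of 0.37 ± 0.056 (adjusted p = 5.2e-06, edgeR). Neither genotype showed overlap between the groups. Without AMPK KO torin1 replicate 1, at 27.1 CPM, the AMPK KO change was 0.26 and under the fold threshold, and an offset for transcript length gave 0.26 and no call as well. Sik3 rose from 107, 113, 125 and 124 CPM to 146, 135, 152 and 159 CPM in WT, by 0.34 ± 0.063 (adjusted p = 6.1e-05, edgeR). That call was lost with the length offset, at 0.16 (adjusted p = 0.029, edgeR), which is under the fold threshold. In AMPK KO it rose from 99.2, 112, 117 and 115 CPM to 156, 145, 149 and 154 CPM, by 0.44 ± 0.063 (adjusted p = 2.2e-06, edgeR). For both genes the difference between genotypes in the torin1 change was small, at -0.07 for Sik2 (95% confidence interval -0.23 to 0.09) and 0.10 for Sik3 (-0.08 to 0.29).

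Sik1 differed between the genotypes in its response to torin1. It is the family member known for rapid induction by cAMP. In WT it read 20.5, 23.5, 22.7 and 22.6 CPM under DMSO and 36.4, 32.3, 34.1 and 33 CPM under torin1, a rise of 0.60 ± 0.048 on the log2 scale (adjusted p = 1.6e-10, edgeR). In AMPK KO it read 38.2, 38, 37.5 and 37.3 CPM under DMSO and 36.9, 34.5, 34.6 and 33.2 CPM under torin1. The AMPK KO libraries were thus above the WT torin1 libraries without the drug, and their change was -0.12 ± 0.046, under the fold threshold. The interaction was -0.72 ± 0.067 (adjusted p = 8.6e-07, edgeR) and was called in every alternative analysis and without each library in turn. Of the torin1 interactions over all genes, 4.15% of tested genes were called higher in AMPK KO than in WT, where Cab39 stood, and 2.92% lower, where Sik1 stood.

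Strada, the pseudokinase partner of LKB1, rose in WT from 22.9, 25.7, 26.1 and 24.2 CPM to 30.3, 34.4, 32.1 and 31.8 CPM with torin1, by 0.38 ± 0.05 (adjusted p = 6.1e-07, edgeR). In AMPK KO the change was 0.21 ± 0.049, under the fold threshold although the groups did not overlap. With library size as the only scaling that change was at 0.27 and called. Strada lies on the strand of Ccdc47, and the annotated spans of the 2 genes overlap. The most abundant Strada transcripts, Strada-201 and Strada-202, lie outside Ccdc47. They held 46.4% and 37.5% of Strada TPM in WT under DMSO as group means. For the rest of Strada, the division of reads between the genes is uncertain. Camkk2 fell in WT from 60.1, 62.9, 60.6 and 55.9 CPM to 49, 47.9, 45.1 and 46.5 CPM, by 0.35 on the log2 scale (SE 0.048, adjusted p = 1.4e-06, edgeR). Its change in AMPK KO was -0.23 ± 0.049, which became -0.26 and a call without AMPK KO DMSO replicate 4. With library size as the only scaling, which moved every torin1 change in WT by 0.10, Camkk2 in WT was at -0.25 and not called. Snrk changed by 0.21 ± 0.072 in AMPK KO, under the fold threshold. It changed by 0.27, a call, without AMPK KO DMSO replicate 3 and also with library size as the only scaling. Stk11, Nuak1 and Nuak2 passed no torin1 call in either genotype, with log2 fold changes between -0.17 and 0.04. Stk11 in WT was at -0.12 ± 0.03 (adjusted p = 0.0014, edgeR), with no overlap between the groups but under the fold threshold.

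**Figure D2:**
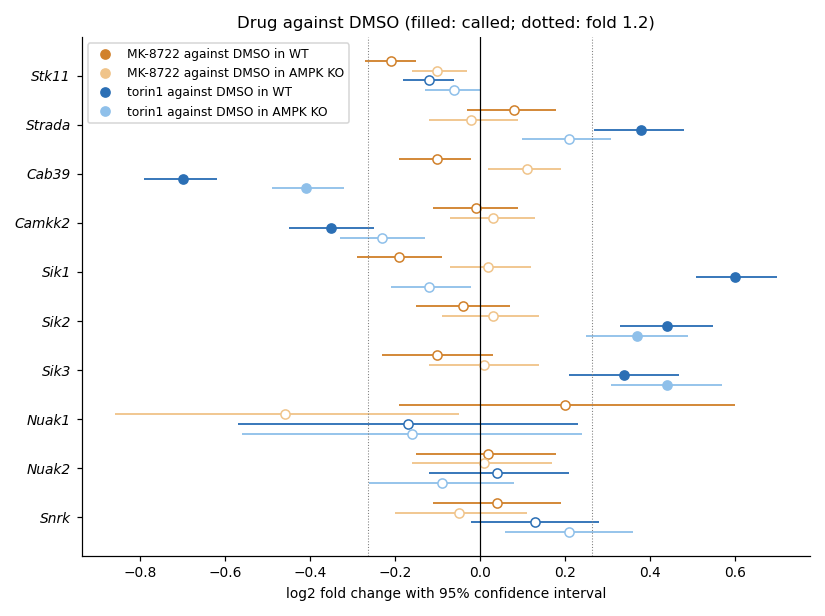
Log2 fold change of each member for each drug against DMSO in the 2 genotypes, with 95% confidence intervals. Filled points were called and dotted lines mark a fold change of 1.2. Only torin1 points are filled, and Sik1 is the gene whose WT and AMPK KO torin1 points lie furthest apart, at 0.60 and -0.12.

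MK-8722 moved none of the 10 members past the call in WT, where 10% of tested genes were called higher and 5.66% lower, nor in AMPK KO, where 0.866% were called higher and 0.695% lower. Counts at an unadjusted p under 0.05 were 5989 and 2610 genes. The median log2 fold change of the members was -0.02 in WT and 0.01 in AMPK KO, against 0 over all genes in each. With passage as a block, 1 member was called, Nuak1 in AMPK KO and in the interaction, with values given beside its passages below. Stk11 and Sik1 in WT had the lowest adjusted p. Stk11 in WT read 175, 174, 176 and 176 CPM under DMSO and 158, 148, 151 and 150 CPM under MK-8722, a change of -0.21 ± 0.03 (adjusted p = 1.1e-05, edgeR). The groups did not overlap, but a change of -13.5% is under the fold threshold. Sik1 changed by -0.19 ± 0.05 (adjusted p = 0.0059, edgeR), from 20.5, 23.5, 22.7 and 22.6 CPM to 20, 19.7, 19.7 and 19 CPM, again with no overlap. With an offset for transcript length, Sik1 in WT was at -0.33 and called. The confidence intervals of the other 8 members in WT lay within -0.23 to 0.60 on the log2 scale, the widest being that of Nuak1. Without the block no member passed the MK-8722 interaction, against 5.12% of tested genes called higher and 7.66% lower in AMPK KO than in WT, and the values for Cab39 and Sik1, both 0.21, had adjusted p of 0.013 and 0.034 (edgeR) and missed the fold threshold. With the length offset these 2 interactions were called, at 0.27 for Cab39 and 0.42 for Sik1.

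In AMPK KO, 6 of the 10 members were called lower than in WT under each treatment. Some calls of Stk11 and Nuak1 depended on the scaling and, for Nuak1, on single libraries, as given below. Under DMSO, Stk11, Camkk2, Sik2, Nuak1, Nuak2 and Snrk were lower than in WT and Sik1 was higher, 6 and 1 of 10, against 26% of tested genes called lower and 30.9% called higher. The members' median log2 fold change was -0.43, against 0.02 over all genes. Under MK-8722 the same 6 members were lower and Sik1 higher, against 27.5% and 31.4%. Under torin1 the same 6 were lower and none was higher, against 23.6% and 31%. The 3 comparisons use different libraries but the same pair of lines and are not separate evidence on genotype.

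Sik2 differed most. Its log2 difference was -1.24 ± 0.056 under DMSO (adjusted p = 1.8e-15, edgeR), -1.18 ± 0.056 under MK-8722 and -1.31 ± 0.054 under torin1, so that the AMPK KO level was 0.424, 0.442 and 0.403 times that of WT. Sik2 runs into Ppp2r1b, a gene on the other strand, and whether counting used strand is not given in the sources used here. Sik1 went the other way, by 0.76 ± 0.048 under DMSO (adjusted p = 1e-12, edgeR) and 0.97 ± 0.048 under MK-8722 (adjusted p = 1.1e-14, edgeR). Under torin1 the groups overlapped, WT at 34 ± 1.79 CPM and AMPK KO at 34.8 ± 1.53 CPM (SD, n = 4).

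Camkk2 was lower in AMPK KO by 0.48 ± 0.049 under DMSO, Snrk by 0.46 ± 0.072 and Nuak2 by 0.57 ± 0.081 on the log2 scale, each with no overlap between the groups. Snrk is a kinase of the family with roles in metabolism and heart muscle. Stk11 read 129, 136, 130 and 135 CPM in AMPK KO under DMSO and differed from WT by -0.40 ± 0.03 (adjusted p = 2.1e-11, edgeR). With library size as the only scaling, which raised AMPK KO against WT by 0.14 under DMSO, 0.11 under MK-8722 and 0.10 under torin1, Stk11 was at -0.18 under MK-8722 and -0.25 under torin1 and not called. Stk11 overlaps Cbarp on the other strand. Cab39 changed by -0.22 ± 0.04 under DMSO, under the fold threshold, and by -0.28 and -0.29, a call, without WT DMSO replicates 1 and 3. Strada was higher in AMPK KO under DMSO by 0.21 ± 0.05 (adjusted p = 0.00062, edgeR), with no overlap but under the fold threshold. With library size as the only scaling it was at 0.35 and called. Sik3 passed no genotype call.

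**Figure D3:**
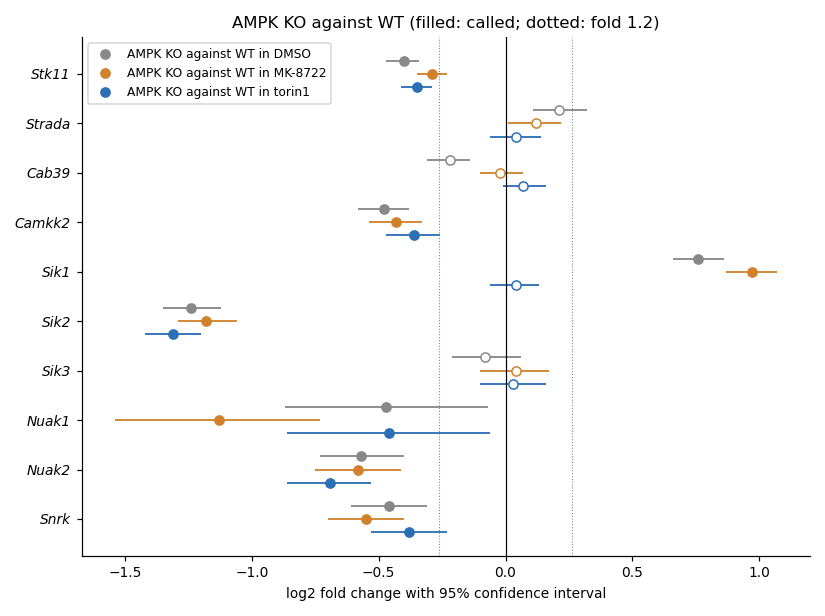
Log2 difference of each member between AMPK KO and WT under DMSO, MK-8722 and torin1, with 95% confidence intervals. Filled points were called and dotted lines mark a fold change of 1.2. Sik2 lies near -1.2 in all 3 treatments, and Sik1 moves from 0.76 and 0.97 to 0.04 under torin1.

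Nuak1 varied more between WT passages than with any drug. NUAK1 is a LKB1-activated kinase that controls cell adhesion through the myosin phosphatase. In WT at passages 12 to 15 it read 39.9, 76.2, 57.9 and 53.2 CPM under DMSO, 41.3, 90.5, 66 and 63.9 CPM under MK-8722, and 42.5, 71, 46.9 and 41.4 CPM under torin1. Passage 13 was highest under all 3 treatments. Averaged over treatments, WT passages spanned 0.93 on the log2 scale, a span that 5.45% of tested genes reached, and AMPK KO passages spanned 0.33, which 27.8% reached. The spans of the other 9 members lay between 0.03 and 0.25 among WT passages and between 0.06 and 0.28 among AMPK KO passages.

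The genotype difference of Nuak1 varied with the libraries used and with the scaling. It was -0.47 ± 0.19 under DMSO (adjusted p = 0.034, edgeR) with overlapping groups, -1.13 ± 0.2 under MK-8722 (adjusted p = 1.7e-05) and -0.46 ± 0.19 under torin1 (adjusted p = 0.038). The call under DMSO was lost without AMPK KO DMSO replicate 3 or 4, at -0.43 and -0.47, and without WT DMSO replicate 2, of passage 13, at -0.30. The call under torin1 was lost without AMPK KO torin1 replicate 1 or 4, at -0.47 and -0.49, and without WT torin1 replicate 2, of passage 13, at -0.25. With library size as the only scaling neither was called, at -0.33 under DMSO (adjusted p = 0.12, edgeR) and -0.36 under torin1 (adjusted p = 0.092, edgeR), and the length offset left the DMSO difference at -0.42 (adjusted p = 0.054, edgeR). In AMPK KO, MK-8722 libraries read 25.5, 34.4, 29.8 and 29.7 CPM, each below the DMSO library of its passage at 37.6, 42.8, 40.8 and 42.5 CPM. The change was -0.46 ± 0.2 and not called (adjusted p = 0.24, edgeR), but with passage as a block within genotype the same change of -0.46 had an adjusted p of 0.00029, and the MK-8722 interaction went from -0.66 with an adjusted p of 0.1 to -0.65 with one of 4.8e-05. That interaction was also called, at -0.83, without WT DMSO replicate 2 and without WT MK-8722 replicate 2.

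**Figure D4:**
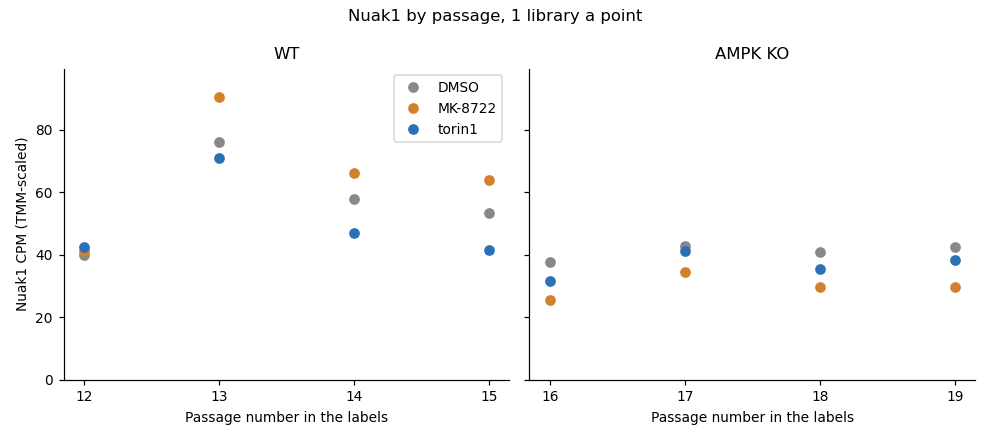
Nuak1 CPM in each library against the passage number in the labels, WT at left and AMPK KO at right, coloured by treatment. In WT the passage 13 libraries lie at 71 to 90.5 and the passage 12 libraries at 39.9 to 42.5, and in AMPK KO the MK-8722 library is the lowest of its passage in all 4.

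With torin1, the estimated share of Sik3 assigned to 1 of its transcripts, Sik3-203, also fell in both genotypes. Of the transcripts of the 10 members, Sik3-203 was the only one whose share of its gene passed a test of usage (edgeR diffSpliceDGE over 52024 transcripts, chosen after the data had been seen). It did so with torin1 in WT, where 0.825% of transcripts were called in either direction, and in AMPK KO, where 0.375% were. Sik3-203 (chr9:46123237-46202885, 2330 bases long) starts inside the gene, whereas Sik3-204 (chr9:46012820-46224194, 6287 bases) spans it. In WT at passages 12 to 15, Sik3-203 read 16.7, 16.4, 17.4 and 18.2 TPM under DMSO and 14.8, 13.9, 12.4 and 11.9 TPM under torin1. Its share of Sik3 TPM went from 37.9 to 42% down to 21.9 to 28.5%, with no overlap. In AMPK KO at passages 16 to 19 it read 13.3, 15.8, 14.6 and 15.9 TPM under DMSO and 12.7, 11, 11 and 12.3 TPM under torin1, and its share fell from between 33.3 and 37.3% to between 20.2 and 22.2%. Relative to the rest of the gene the change was -0.82 on the log2 scale in WT (adjusted p = 6.8e-05, edgeR) and -0.89 in AMPK KO (adjusted p = 2.4e-05, edgeR), with an interaction of -0.07 (adjusted p = 1). Sik3-204 read 12.9 to 13.6 TPM under DMSO and 17.8 to 24.1 TPM under torin1 in WT, a rise of 0.67 ± 0.1 on the log2 scale (adjusted p = 3.4e-05), and one of 0.63 ± 0.1 in AMPK KO (adjusted p = 9.2e-05). With MK-8722, no transcript of a member was called, against 0.0673% of transcripts in WT and 0.0481% in AMPK KO. Salmon divides reads among transcripts that share exons, so these levels are estimates.

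**Figure D5:**
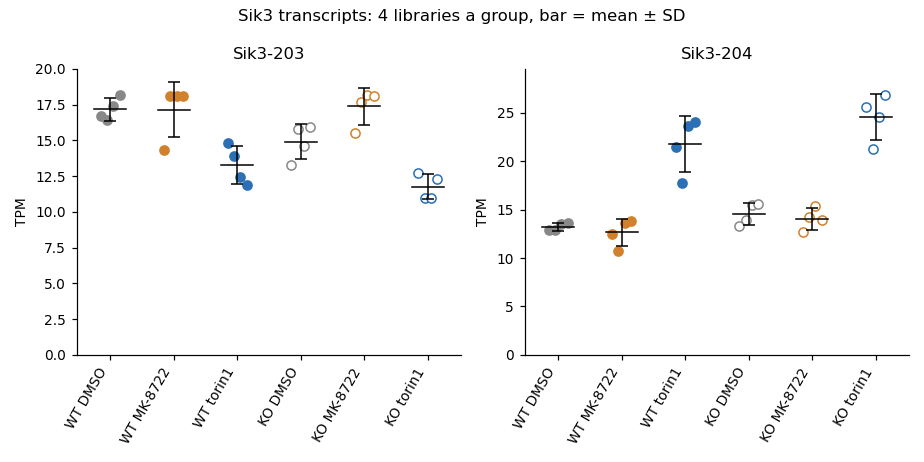
TPM of Sik3-203 and Sik3-204 in each library, by group, with filled points for WT, open points for AMPK KO and bars for the mean ± SD of 4 libraries. Within each genotype, torin1 libraries lie below the DMSO libraries for Sik3-203, at 11 to 14.8 over both genotypes, and above them for Sik3-204, at 17.8 to 26.9.

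The leading transcript of Nuak1 held 90.1 to 95.5% of its gene's TPM as a group mean, that of Sik1 82.9 to 93.9%, that of Cab39 72.8 to 76.4% and that of Stk11 50.3 to 53%. Sik2 and Snrk were divided more evenly, with leading transcripts at 27.9 to 35.1% and 29.2 to 37.2%.

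Of 14 other genes of the pathway, 13 were tested. With torin1, 2 rose and 4 fell in WT, and 4 rose and 4 fell in AMPK KO, beside 26.6% and 21.1% of all tested genes in WT and 25.9% and 17.6% in AMPK KO. With 13 genes, these counts do not stand far from those shares. The genes named next were chosen after their values were seen. Stradb and Cab39l changed in the same direction as their paralogues Strada and Cab39 in both genotypes, though Strada in AMPK KO was not called. Stradb, the other STRAD pseudokinase, rose by 0.60 ± 0.073 in WT and 0.59 ± 0.074 in AMPK KO, and Cab39l, the other MO25 scaffold, changed by -0.36 ± 0.047 and -0.46 ± 0.049. Mark3, a polarity kinase that LKB1 activates, changed by -0.65 ± 0.038 and -0.50 ± 0.037, and Map3k7, a kinase reported to act on AMPK, by -0.48 ± 0.039 and -0.35 ± 0.039. MK-8722 in WT raised 2, Brsk1 by 0.36 ± 0.078 and Prkaa2 by 0.71 ± 0.19, and called 0 of 13 in AMPK KO, beside 10% and 0.866% of tested genes called higher. Between genotypes under DMSO, 5 of the 13 were lower in AMPK KO and 2 were higher, beside 26% and 30.9% of tested genes. Mark1, scarce in WT, was among the higher, by 2.01 ± 0.11 on the log2 scale. It went from 1.62 ± 0.1 CPM in WT to 6.54 ± 0.466 CPM in AMPK KO (SD, n = 4).

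Among 7 SIK substrates, torin1 raised Crtc1, by 0.57 ± 0.045 in WT and 0.45 ± 0.044 in AMPK KO, and Hdac5, by 0.35 ± 0.06 and 0.54 ± 0.06, and lowered none. Over all tested genes, 26.6% were called higher and 21.1% lower in WT, and 25.9% and 17.6% in AMPK KO. With 7 genes, these counts do not stand far from those shares. MK-8722 raised Hdac5 by 0.60 ± 0.06 in WT, from 103 ± 6.75 to 156 ± 3.37 CPM (SD, n = 4), and not in AMPK KO, with an interaction of -0.62 ± 0.085 (adjusted p = 1.8e-05, edgeR). MK-8722 called no other gene of this list, beside 10% of tested genes called higher in WT and 0.866% in AMPK KO. Of 12 tested CREB target genes, which CRTC coactivators help to drive, MK-8722 in WT raised Nr4a1, by 0.62 ± 0.089, and Fosb and lowered Per1 and Pde4b, beside 10% of tested genes called higher and 5.66% lower. In AMPK KO it raised Nr4a1, by 0.51 ± 0.092, and Areg, by 0.87 ± 0.17, and lowered none, beside 0.866% and 0.695%. Pde4b, a phosphodiesterase that degrades cAMP, fell from 11.7 ± 1.88 to 0.926 ± 0.0868 CPM in WT, by 3.65 on the log2 scale, and read 22.7 ± 1.34 and 23.3 ± 0.377 CPM in AMPK KO. Of 5 NUAK partners and subunits of the MYPT1 phosphatase, torin1 raised Btrc, part of a ubiquitin ligase, by 0.52 ± 0.069 in WT and 0.49 ± 0.068 in AMPK KO, and lowered Ppp1cb, a catalytic subunit, in WT, with a change of -0.30 ± 0.052. These calls stand beside 26.6% of tested genes called higher and 21.1% lower in WT, and 25.9% and 17.6% in AMPK KO. Ppp1r12b, a myosin phosphatase subunit, fell with MK-8722 in both genotypes, with changes of -0.34 ± 0.071 in WT and -0.27 ± 0.064 in AMPK KO. Of all tested genes, MK-8722 lowered 5.66% in WT and 0.695% in AMPK KO past the call.

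Over the 24 libraries, the patterns most like that of Sik2 were those of Slc35e3 (Pearson r = 0.992), Ror2 and Lrig3 (0.99 each), among 9958 protein-coding genes. For Sik1 they were Gpr39 (0.957), Rhot2 (0.951) and Traf1 (0.944), and for Nuak1 they were Maged2 (0.917), Lurap1l and Glis3 (0.916 each). These correlations are descriptions, since libraries of a group share genotype and treatment.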

How the data were processed

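Poly(A) RNA of 24 MEF libraries was sequenced. Per the study's methods and the submitters' processing notes, the authors used STAR and Salmon on GRCm38. The deposited gene table holds estimated counts, not normalized, and the transcript tables as deposited give TPM, which the authors' Salmon run scaled for length and depth, beside estimated counts. Annotation positions are from GENCODE on the same build. The strand setting of counting is not given in the sources used here.

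Groups came from the deposited labels for genotype and treatment. Estimated counts were rounded, filtered with filterByExpr (99.96% of counts kept), scaled with TMM factors and fitted as 6 group means over all 24 libraries in edgeR 4.0.16 (R 4.3.3), with two-sided quasi-likelihood tests in 9 comparisons. Calls needed an adjusted p under 0.05 over 15828 genes and a fold change of at least 1.2. The common biological coefficient of variation was 0.079, and replicate pairs differed by 3.52 to 26.5 times the counting variance (36 pairs). CPM use TMM-scaled library sizes and log2 CPM a prior count of 2.

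All 10 members were named. Members and lists were chosen with earlier results of these data known. Other list genes were named if called with MK-8722 in WT or with both drugs in WT, and Stradb, Cab39l, Mark3, Map3k7, Mark1, Crtc1, Areg, Ppp1cb and Btrc were chosen after their values were seen. Genes most like a member were the 3 protein-coding genes of at least 5 CPM with the highest r, for the 3 members with the widest range. Transcripts were named from 20% of their gene. In simulated counts of the MK-8722 comparison in WT (14374 genes, 200 changed), 99% of 2-fold and 88.8% of 0.5 log2 changes were called, and 6 of 192 calls were false. Simulated libraries were drawn independently around the WT DMSO means, with a spread set by abundance and no passage effect. Changed genes were taken from those with higher counts. These rates therefore need not hold for genes that vary by passage, such as Nuak1. In simulated transcripts of the torin1 comparison in WT, 64% of 200 changed were called. Alternatives were other scalings, no filter, a transcript length offset, replicate number or passage as a block, adjusted p alone, the compared libraries alone, DESeq2 1.42.0 and leaving out each library.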

Additional observations from a re-analysis of the deposited data

Results flagged for a closer look

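Cab39 and Sik1 differed between the genotypes in their response to torin1, by 0.30 and -0.72 on the log2 scale, AMPK KO against WT, in the test of the difference itself. Strada in AMPK KO under torin1 had 1 library apart from the rest, replicate 1 of passage 16 at 31.6 CPM, while the other 3 lay at 33.5 CPM. That gap was 0.97 of the group's range, past Dixon's limit. It was the only such library among 60 groups of 4 libraries, of which chance gives about 1 in 20.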

How the results depend on the processing

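Of the 31 member changes called, 23 kept their call under every alternative and without each library, and 0 turned. A further 61 values changed sign while called in neither analysis, with sizes of at most 0.17 on the log2 scale. DESeq2 and its size factors gave the main counts of called members in every comparison. Counts of called members that moved by over 1.5 times were these. For MK-8722 in WT, 0 became 1 with the length offset and 2 by adjusted p alone. For MK-8722 in AMPK KO, 0 became 1 with the passage replicate block and 1 with the compared libraries alone. For torin1 in AMPK KO, 3 became 5 with library size alone and 7 by adjusted p alone. For the MK-8722 interaction, 0 became 1 with the passage block and 2 with the length offset and by adjusted p alone. For the torin1 interaction, 2 became 1 with library size alone and with the length offset. Leaving out 1 library gave 2 to 4 members for torin1 in AMPK KO, 6 to 8 for genotype in DMSO, 5 to 6 for genotype in torin1, 0 to 1 for the MK-8722 interaction and 1 to 2 for that of torin1. Without a filter, 8 members in place of 7 were called between genotypes in DMSO. With the length offset the torin1 calls of Sik3 in WT, at 0.16, and of Sik2 in AMPK KO, at 0.26, were lost, and the cause was not tested.

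Libraries of the same passage deviated together with r of -0.01 to 0.37 (24 pairs, 15 over 0.1). Between passages of a genotype r was -0.25 to 0.07 (72 pairs, 0 over 0.1). Libraries of the same replicate number and genotype had r of -0.2 to 0.25 (24 pairs, 4 over 0.1). Within a genotype, 18 of the 24 libraries correlated best with one of their own passage. In a separate tally, 6 correlated best with one of their own replicate number. The same library can count in both tallies, and chance alone gives some matches in each. Passage thus went with shared deviations in most libraries, though not in all, and the main fit does not include it. In the paired fits, the replicate block by number lost only Nuak1 between genotypes in torin1 (-0.45, adjusted p = 0.051, edgeR), leaving 5 members, and the passage replicate block added only Nuak1 with MK-8722 in AMPK KO and its interaction. Over all genes, the passage block raised the calls for MK-8722 in AMPK KO from 247 to 729 and for the torin1 interaction from 1119 to 1861. The length offset gave 137 for MK-8722 in AMPK KO, and adjusted p alone 423, and 4447 in place of 2483 in WT. The usage test of transcripts was run in 1 form alone.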
